A study of Mus musculus with 2 samples.

Results

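The genes described here encode 8 receptors on the surface of T cells and their precursors, Cd2, Cd5, Cd6, Cd27, Cd28, Thy1, Cd24a and Ptprc, out of 21938 protein-coding genes annotated in the mouse. They were chosen by name as adhesion, costimulatory and phosphatase receptors, and their data are the DNase I accessible regions and footprints in each gene body plus 50 kb on each side, on mm10. DNase-seq maps open chromatin by cutting nuclei with DNase I, an enzyme that reaches DNA not wrapped in nucleosomes, and sequencing the cut ends. A footprint is a short stretch inside open chromatin that was cut less than its surroundings, as happens where a protein sits on the DNA. The samples were 2 thymus libraries, biological replicates 1 and 2, from females of the B6CASTF1/J hybrid at 10 days of age. These mice carry a CAST/EiJ set of chromosomes beside the C57BL/6 set. The labels name no treatment, and there was 1 group with no control, so heights are compared between replicates and with all genes, and no test was made. Females 05 and 06 in the labels share a single donor identifier, which was read as that of the cross.

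The receptors act at the contact between a T cell and another cell. CD2, THY1 and CD6 take part in adhesion, CD28 and CD27 deliver costimulatory signals beside the T-cell receptor, and CD5 dampens signalling through that receptor. CD24, the heat-stable antigen, is abundant on immature thymocytes and is lost as they mature. CD45, the product of Ptprc, is a tyrosine phosphatase that removes an inhibitory phosphate from the kinase LCK. In the thymus most cells are developing T cells. A bulk tissue cannot show whether fewer cells of a type carried a region or each cell carried it less often.

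Replicate 1 held 132737 peaks and 375374 footprints, and replicate 2 held 69798 peaks and 210014 footprints. The windows of the 8 genes held 309 and 155 of those peaks and 1019 and 440 of those footprints in replicates 1 and 2. Joined over the replicates, the peaks made 310 regions, of which 249 were distal, meaning more than 1 kb away from the starts of protein-coding genes. T-lineage marker genes had a promoter peak at 10 of 10 in both replicates, with a summed promoter height of 56.0 and 55.4. Among markers of other cell types, a promoter peak was listed in each replicate for 2 of 5 myeloid, 1 of 5 thymic epithelial, 3 of 5 endothelial, 3 of 5 erythroid and 2 of 5 neuronal genes. Fibroblast markers had 3 of 5 in replicate 1 and 2 of 5 in replicate 2, and hepatocyte markers 0 of 5 in both. Over all protein-coding genes, 63.4% had a promoter peak in replicate 1 and 57.8% in replicate 2. Summed promoter heights of these other lists lay between 0 and 7.66 in replicate 1 and between 0 and 3.997 in replicate 2. Each of them sums over 5 genes, against 10 in the T-lineage list. Of B-lineage genes, Pax5 had promoter heights of 3.09 and 3.12 and Cd22 of 0.996 and 0.550, while Cd79a and Ms4a1 had no promoter peak. The epithelial regulator Foxn1 had none either, and the part of other cells in the results on the receptors was not tested.

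The sequences on which the footprint results rest are shown here. Each distal run is the stretch covered by peaks of both replicates in the highest distal region lying nearest to that receptor, on the strand of the gene, 5′ to 3′ and in mm10. A second run is given for Cd5 and for Cd6, since their footprints hold core letters of the insulator protein CTCF. The distal region next to Cd27 overlaps an exon of the protein-coding gene Vamp1, so the promoter of Cd27 stands in its place. The Cd28 and Ptprc runs and the Cd5 run 1.8 kb before the 5′ end overlap exons of genes not annotated as protein-coding. Capitals mark bases inside a footprint in both replicates.
Cd2, 7.8 kb before the 5′ end, chr3:101295601-101295820: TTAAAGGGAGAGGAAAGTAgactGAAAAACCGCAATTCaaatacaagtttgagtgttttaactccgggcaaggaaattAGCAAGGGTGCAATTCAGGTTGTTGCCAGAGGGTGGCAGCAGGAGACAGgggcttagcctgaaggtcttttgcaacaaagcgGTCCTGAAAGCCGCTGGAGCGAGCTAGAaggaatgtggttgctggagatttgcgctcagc
Cd5, 1.8 kb before the 5′ end, chr19:10740681-10740980: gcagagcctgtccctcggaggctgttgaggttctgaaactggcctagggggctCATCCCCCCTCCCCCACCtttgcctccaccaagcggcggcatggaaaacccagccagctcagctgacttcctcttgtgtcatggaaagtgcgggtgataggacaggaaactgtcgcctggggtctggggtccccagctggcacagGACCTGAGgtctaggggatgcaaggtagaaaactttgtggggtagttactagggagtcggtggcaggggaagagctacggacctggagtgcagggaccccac
Cd5, 29.5 kb after the 5′ end and inside an intron of Vps37c, chr19:10709441-10709640: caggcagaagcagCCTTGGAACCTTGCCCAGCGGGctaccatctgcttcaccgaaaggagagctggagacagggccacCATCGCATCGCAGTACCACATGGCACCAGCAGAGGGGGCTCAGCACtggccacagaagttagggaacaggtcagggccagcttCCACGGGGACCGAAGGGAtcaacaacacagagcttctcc
Cd6, 42.5 kb after the 5′ end, chr19:10787441-10787680: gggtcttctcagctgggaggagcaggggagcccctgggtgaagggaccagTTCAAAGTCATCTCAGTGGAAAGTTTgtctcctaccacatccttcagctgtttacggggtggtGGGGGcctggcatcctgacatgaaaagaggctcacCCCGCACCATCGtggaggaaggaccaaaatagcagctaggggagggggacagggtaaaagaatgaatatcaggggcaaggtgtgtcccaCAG
Cd6, 1.6 kb before the 5′ end, chr19:10831541-10831720: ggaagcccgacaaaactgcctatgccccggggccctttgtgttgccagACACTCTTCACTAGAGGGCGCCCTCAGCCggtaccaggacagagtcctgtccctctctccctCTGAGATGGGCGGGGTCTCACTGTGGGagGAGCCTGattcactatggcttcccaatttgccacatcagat
Cd28, 60.3 kb after the 5′ end, chr1:60777021-60777240: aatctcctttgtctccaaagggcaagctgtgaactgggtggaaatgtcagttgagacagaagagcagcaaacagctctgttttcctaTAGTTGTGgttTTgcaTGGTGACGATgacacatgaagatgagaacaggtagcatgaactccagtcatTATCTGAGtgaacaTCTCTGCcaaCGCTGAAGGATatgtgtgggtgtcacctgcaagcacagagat
Thy1, 21.1 kb before the 5′ end, chr9:44022181-44022400: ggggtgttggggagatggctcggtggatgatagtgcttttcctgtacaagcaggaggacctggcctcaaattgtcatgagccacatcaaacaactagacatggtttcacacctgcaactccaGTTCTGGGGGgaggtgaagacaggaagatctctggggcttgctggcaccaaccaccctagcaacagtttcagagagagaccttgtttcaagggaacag
Cd24a, 3.1 kb before the 5′ end, chr10:43575061-43575200: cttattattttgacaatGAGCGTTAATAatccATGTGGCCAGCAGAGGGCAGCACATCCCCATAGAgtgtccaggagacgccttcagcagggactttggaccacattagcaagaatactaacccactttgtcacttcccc
Ptprc, 16.2 kb before the 5′ end, chr1:138191721-138191920: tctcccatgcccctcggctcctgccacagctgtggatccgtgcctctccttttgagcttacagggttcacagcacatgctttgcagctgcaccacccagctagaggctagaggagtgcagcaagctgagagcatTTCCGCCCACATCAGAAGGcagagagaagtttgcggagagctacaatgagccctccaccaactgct

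The RefSeq promoter table (GRCm38.p6) held 3 of the 8 genes, Cd5, Cd27 and Ptprc, and only the part before the RefSeq start that overlaps no annotated exon is printed. The Ptprc stretch lies inside the annotated gene body, since the outermost annotated start of that gene is farther upstream. For Cd5 and Cd27 the capitals have the same meaning as above. For Ptprc they mark footprints of replicate 1 alone, since replicate 2 listed none there.
Cd27 promoter, chr6:125237011-125237277: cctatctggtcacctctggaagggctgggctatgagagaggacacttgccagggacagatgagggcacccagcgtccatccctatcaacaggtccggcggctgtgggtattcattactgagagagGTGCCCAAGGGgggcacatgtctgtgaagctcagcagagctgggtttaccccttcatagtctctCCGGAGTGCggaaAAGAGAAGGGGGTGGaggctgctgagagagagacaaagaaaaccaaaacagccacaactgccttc
Cd5 promoter, chr19:10739003-10739224: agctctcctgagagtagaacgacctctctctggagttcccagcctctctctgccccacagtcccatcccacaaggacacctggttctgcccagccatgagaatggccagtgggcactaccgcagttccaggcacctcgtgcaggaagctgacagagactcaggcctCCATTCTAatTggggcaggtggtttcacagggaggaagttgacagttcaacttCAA
Ptprc promoter, chr1:138175307-138175555: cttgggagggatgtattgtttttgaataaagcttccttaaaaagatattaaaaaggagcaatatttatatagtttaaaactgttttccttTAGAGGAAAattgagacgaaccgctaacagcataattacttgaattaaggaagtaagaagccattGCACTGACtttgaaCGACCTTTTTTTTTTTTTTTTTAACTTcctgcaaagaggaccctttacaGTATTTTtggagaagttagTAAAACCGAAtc

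At the promoters, all 8 receptors had a peak at most 500 bp from an annotated start in replicate 1, where 63.4% of protein-coding genes had one, and 7 of 8 had one in replicate 2, where 57.8% did. The same 7 of 8 had one in both replicates, against 57.2% of all genes. Their heights lay near the middle of the range. Among genes with a promoter peak the receptors ranked between the 41.9th and the 56.7th percentile in replicate 1 and between the 28.4th and the 54.7th in replicate 2. The median promoter height over all such genes was 4.30 in replicate 1 and 4.07 in replicate 2. Heights are the authors' signal, on a scale whose factor is not given by the labels or the files' headers.

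A further property of these promoters is their low CpG content. The observed over expected CpG ratio in the 500 bp on each side of the outermost 5′ end was under 0.6 at 7 of 8 receptors, between 0.159 at Cd28 and 0.431 at Thy1, and was 0.824 at Cd24a. Around the start nearest to the replicate 1 peak that set the promoter height, 7 of 8 also lay under 0.6, with 0.138 at Cd2, 0.207 at Cd28 and 0.348 at Ptprc, and Cd24a had 0.785. By the outermost 5′ end, 54.0% of all protein-coding genes lay under 0.6. A promoter peak was found at 7 of the 7 CpG-poor receptors in replicate 1 and at 6 of 7 in replicate 2, against 38.3% and 31.6% of all CpG-poor genes. Among CpG-poor genes with a peak, the 7 receptors lay between the 63.9th and the 77.3rd percentile of height in replicate 1, and the 6 with a peak in replicate 2 lay between the 48.7th and the 75.8th. With CpG content taken around the start nearest to the peak, the replicate 1 range was the 69.1st to the 81.9th.

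Among the adhesion receptors, Cd2, whose product binds CD48 in mice, had its highest promoter peak 7.4 kb into the gene, with heights of 4.20 in replicate 1 and 2.64 in replicate 2. The internal transcription start nearest to that peak lies 7.55 kb into the gene. Its annotated 5′ end (chr3:101275899-101287939, minus strand) carried lower peaks of 3.12 and 1.70. Thy1, a lipid-anchored glycoprotein abundant on mouse thymocytes, had 3.90 in replicate 1 and 4.63 in replicate 2 and was the only receptor of the 7 with a higher deposited height in replicate 2. Divided by the library median, Thy1 was lower in replicate 2, with 6.23 in replicate 1 and 5.59 in replicate 2. Cd6, a scavenger-receptor relative of CD5 that binds ALCAM, had 3.58 and 2.01, the lowest of those found in both replicates.

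Among the signalling receptors, Cd5 had promoter heights of 4.72 in replicate 1 and 3.84 in replicate 2, and Cd27, a member of the TNF receptor family, had 5.10 and 3.78. Cd28, the receptor for CD80 and CD86, had 4.69 and 3.21 at a start 29.6 kb into its annotated body (chr1:60716800-60773359, plus strand), while the outermost annotated 5′ end had no peak in either replicate. Cd24a had 5.07 and 4.49 at a start 0.885 kb into the gene, while the outermost 5′ end had 2.28 and 0.637. These internal starts set the promoter height of 3 of the 8 genes, so a value at the outermost 5′ end alone would be lower or missing for Cd2, Cd24a and Cd28.

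**Figure D1:**
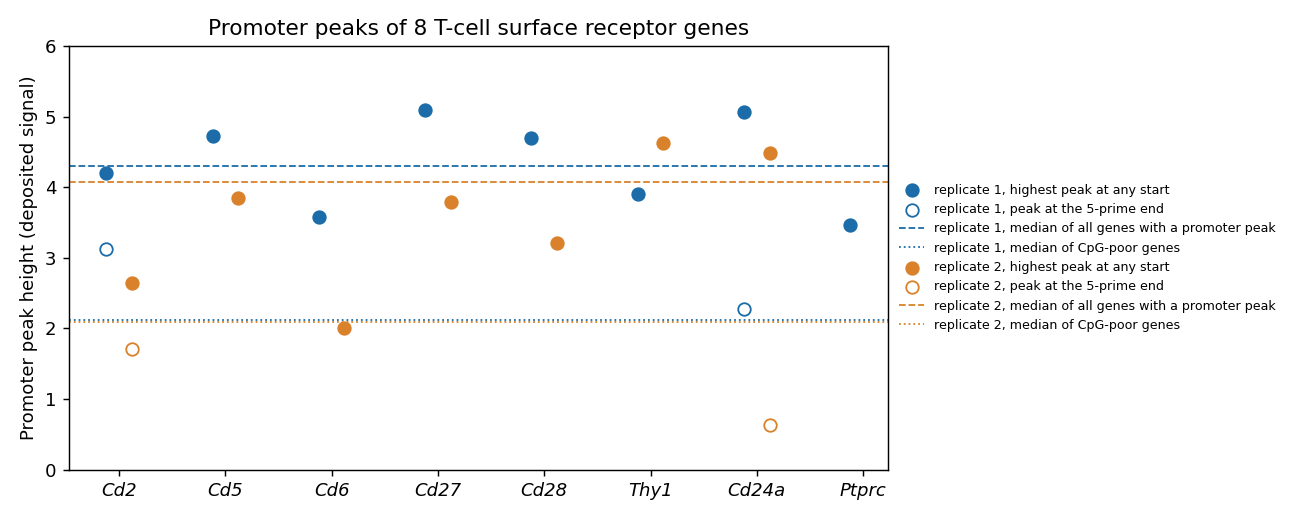
Promoter peak height (vertical axis, deposited signal) of the 8 receptor genes in replicate 1 (blue) and replicate 2 (orange), 1 point per library. Open points give the outermost 5′ end where it differs, dashed lines the median of all genes with a promoter peak (4.30 and 4.07) and dotted lines that of CpG-poor genes (2.13 and 2.10). Filled points of replicate 1 lie between 3.46 and 5.10, and no point of replicate 2 is drawn for Ptprc.

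Divided by the median height of all peaks in the same library, promoter heights ran from 6.76 ± 1.90 at Cd24a, 6.36 ± 2.53 at Cd27, 6.09 ± 2.06 at Cd5, 5.91 ± 0.455 at Thy1, 5.69 ± 2.56 at Cd28 and 4.95 ± 2.49 at Cd2 to 4.07 ± 2.33 at Cd6 (mean ± SD, n = 2). Neighbours in this order differed by less than the larger of their SDs in every case, but the SDs include the offset between the libraries, since all 7 values were higher in replicate 1. The dividing median was 0.625 in replicate 1 and 0.828 in replicate 2, so the division itself lowers the values of replicate 2 relative to replicate 1. Within each library Cd24a, Cd5, Cd28, Cd2 and Cd6 stood in that same order. The places of Cd27 and Thy1 changed, with Cd27 highest in replicate 1 and Thy1 highest in replicate 2. Of the 7 genes, 6 had a lower deposited height in replicate 2, where 65.0% of all promoters found in both replicates were lower too. The log2 ratio of replicate 2 to replicate 1 lay between -0.83 at Cd6 and 0.25 at Thy1, against a median of -0.15 and an SD of 0.45 over 12547 genes. Ranked by mean height over the library median among 12547 genes, the receptors stood between place 6027, Cd24a, and place 8428, Cd6. The genes next to Cd24a in height were Ankle2 and Kazald1, next to Cd27 Tmem29 and Agap2, next to Cd5 Kctd20 and Ulk2, and next to Thy1 Crebbp and Rfc4. Cd28 stood between Jak2 and Ctsb, Cd2 between Efcab7 and Decr2, and Cd6 between Azin2 and Ube2e1.

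Ptprc differed from the other 7 genes between the libraries. In replicate 1 its promoter held a peak of height 3.46 (chr1:138175161-138175420). The 500 bp on each side of its 12 annotated starts held 11 footprints in that replicate. In replicate 2 no peak and no footprint was listed there, and 0 of 4489 promoter bases appeared in the list of cut-rate false discovery rates, against 1325 bases in replicate 1. Of 872 genes with a promoter height in replicate 1 within 10% of that of Ptprc, Ptprc was the 1 gene with no promoter peak in replicate 2 (0.115%). Over all replicate 1 peaks within 10% of that height, 42 of 3273 (1.28%) met no replicate 2 peak. The Ptprc peak had a GC content of 37.3%, while promoter peaks of the other receptors lay between 48.8% and 71.3% and the median of peaks of like height was 55.0%. Of the 19 peaks of like height with a GC content at or below that of the Ptprc peak, 8 (42.1%) met no peak in replicate 2. The Ptprc peak itself is counted among the 19 and the 8, and among the 42 of 3273 above. The part of base composition in the missing peak was not tested.

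In the printed Ptprc promoter, the long run of T letters lies inside a replicate 1 footprint. The letters CTTTGA at position 163, counted from 1 at the 5′ end, touch another with their first letter alone. CTTTGA, on either strand, is the core bound by TCF and LEF factors and stood in 16.0% of 32851 RefSeq promoters of 300 bases. The ETS core, AGGAAG or CGGAAG, was present in the Ptprc and Cd5 promoters and in 46.5% of all promoters, and no match to it was found in that of Cd27. Of the 3 matches in the printed Ptprc stretch, 1 lies in part in capitals, read as CTTCCT at position 194. The matches in the printed Cd5 stretch lie outside capitals. The RUNX core TGTGGT was found in none of the 3 and in 16.8% of all promoters.

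Away from the promoters the receptors had many distal regions. Cd2 had 50 in its window, Thy1 49, Cd28 43, Cd27 39, Cd5 30, Ptprc 28, Cd6 27 and Cd24a 5, against a median of 7 over all protein-coding genes. Regions found in both replicates numbered 24 at Cd2, 13 at Cd5, 13 at Cd27, 12 at Cd28, 11 at Cd6, 11 at Thy1, 8 at Ptprc and 2 at Cd24a, against a median of 2 over all genes. Cd2 thus stood at the 99.8th percentile of all genes by shared distal regions, and Cd24a at the 46.6th. Per 100 kb of window the receptors ranged from 21.4 shared regions at Cd2 to 1.89 at Cd24a, against a median of 1.75 over all genes. The windows of Cd5 and Cd6 overlap, and the 85 distinct shared distal regions count each region a single time.

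**Figure D2:**
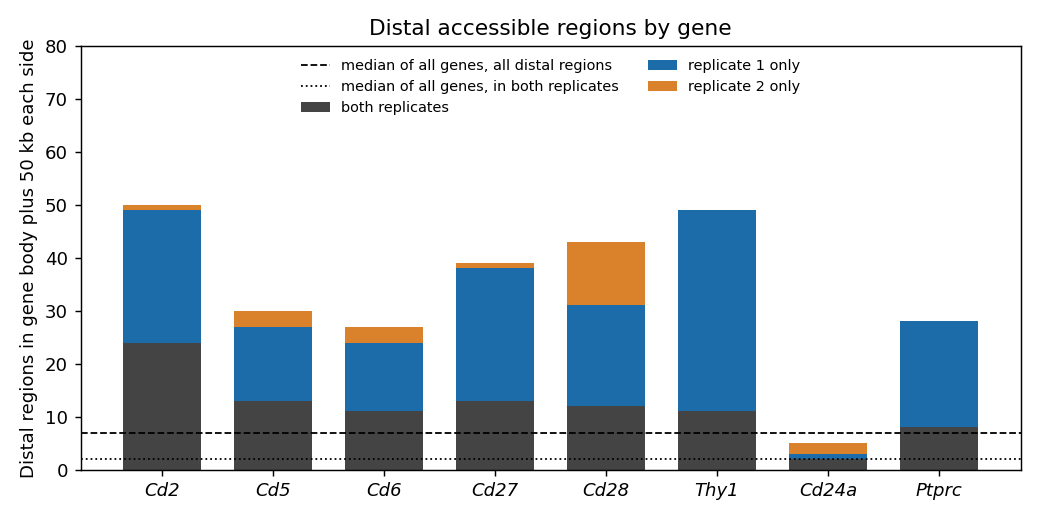
Distal regions (vertical axis, count) in the gene body plus 50 kb each side of each receptor gene, stacked by whether they were found in both replicates (dark), in replicate 1 only (blue) or in replicate 2 only (orange). Lines give the medians over all genes, 7 for all distal regions and 2 for those in both replicates. Cd2 has 24 regions in both replicates and Cd24a has 2.

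The replicates overlapped unevenly. At Cd2, 25 regions were found in replicate 1 alone and 1 in replicate 2 alone, and at Thy1 the counts were 38 and 0. At Cd28, 12 regions were found in replicate 2 alone, and of its 24 replicate 2 distal regions the other 12 were found in replicate 1, against 82.8% over all distal regions of replicate 2. The 12 regions of replicate 2 alone all lay in introns of Cd28, between 26.5 and 41.0 kb after the annotated 5′ end, and were low, between 0.116 and 0.435. The share of replicate 1 distal regions that replicate 2 also held ranged from 22.4% at Thy1 to 66.7% at Cd24a, where it was 2 of 3 regions, against 35.6% over all distal regions of replicate 1. Of the 85 shared distal regions 77 were lower in replicate 2, with a median log2 ratio of replicate 2 to replicate 1 of -0.77, against -0.71 over all shared distal regions.

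Clusters were defined as 3 or more shared distal regions with gaps of at most 5 kb. At least 1 lay in the windows of 6 of 8 receptors, where 17.1% of all protein-coding genes had one, and at least 2 lay in those of 4 receptors, Cd2, Cd5, Cd27 and Cd28, where 3.60% of all genes had as many. That count of 4 fell to 2 with the stricter peak list, with 20 kb on each side and with regions nearest to the receptor alone, and to 1 with gaps of at most 2 kb. Cd24a and Ptprc had none. The windows held 9 distinct clusters.

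The longest cluster covered Cd2 itself. It ran from 16.5 kb before to 13.1 kb after the 5′ end (chr3:101274861-101304400), over 29.5 kb, and held 17 shared regions, most of them under a height of 3 in both replicates. The highest of them lay 7.8 kb before the gene between genes, with a height of 13.5 in replicate 1 and 9.57 in replicate 2, at the 99.9th and 99.6th percentile of all shared distal regions. The next, 12.9 kb after the 5′ end and just past the 3′ end of Cd2, had 5.18 and 4.55. A second cluster of 5 regions lay 48.7 to 54.5 kb after the 5′ end, with heights from 0.869 to 2.77 in replicate 1 and from 0.556 to 1.46 in replicate 2. No other protein-coding gene lay in the Cd2 window.

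Cd5 and Cd6 lie next to each other on the minus strand of chromosome 19, and Cd6 (chr19:10789341-10830058) is read towards Cd5 (chr19:10717116-10739002). Between them, just past the 3′ end of Cd6, 5 shared regions formed a cluster (chr19:10783181-10788560) that falls in both windows. Its highest region had 5.88 in replicate 1 and 4.45 in replicate 2, and its neighbour on the side of Cd6 had 3.52 and 3.63. Before the start of each gene a single shared distal region stood close by: 1.6 kb before Cd6 with 4.77 and 3.52, and 1.8 kb before Cd5 with 4.03 and 2.91. The region before Cd5 overlaps an exon of A430093F15Rik, a gene not annotated as protein-coding. A cluster of 3 regions past the 3′ end of Cd5 reached into Vps37c, with heights of 3.93 and 2.72 in the intronic region printed above.

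Cd27 (chr6:125232622-125237010) shares its window with 5 other protein-coding genes, and Vamp1, a membrane-fusion protein gene, runs across it. The highest distal region of the window lay 14.6 kb after the Cd27 5′ end inside a Vamp1 intron, nearest to a Vamp1 start, with 8.01 in replicate 1 and 9.81 in replicate 2. It belonged to a cluster of 6 regions from 8.6 to 20.3 kb after the Cd27 5′ end. The 3 regions nearest to Cd27 formed a cluster from 7.9 to 1.5 kb before it, also within Vamp1, and the highest had 5.80 and 3.99. Of the 13 shared distal regions in its window, 4 were nearest to a Cd27 start.

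At Cd28 both clusters lay inside the annotated gene body. The 4 regions around the internal start were low, at most 1.23 in replicate 1 and 0.417 in replicate 2, and the 3 regions 38.7 to 41.8 kb after the 5′ end reached 3.27 and 1.48. Beyond the 3′ end, regions 60.3 and 65.0 kb after the 5′ end lay in long noncoding RNA genes, with heights of 3.68 and 1.85 for the nearer and 2.86 and 1.92 for the farther. The highest region of the window, 106.3 kb after the 5′ end with 5.03 and 2.95, was nearest to Ctla4, an inhibitory relative of Cd28.

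Thy1 (chr9:44043384-44048579) had 8 shared regions on its upstream side within 31.0 kb, and 3 of them formed a cluster from 13.7 to 9.1 kb before the gene. The highest, 21.1 kb before it in an intron of the noncoding gene Gm39323, had 5.82 in replicate 1 and 5.49 in replicate 2. The region 31.0 kb before it had 3.51 and 4.30. Downstream, the 3 shared distal regions of the window were nearest to Usp2.

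Ptprc (chr1:138062861-138175708) had high distal regions that formed no cluster. The highest lay 16.2 kb before the gene in an exon of the noncoding gene Gm28556, with 7.14 in replicate 1 and 6.29 in replicate 2. An intronic region 39.1 kb after the 5′ end had 6.34 and 5.20, and a region 131.0 kb after the 5′ end, beyond the 3′ end, had 5.77 and 2.58. These stood in both libraries, although the promoter peak was listed in replicate 1 alone. Cd24a (chr10:43578284-43584265) had 1 shared distal region nearest to it, 3.1 kb before the gene, with 3.04 and 1.55.

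**Figure D3:**
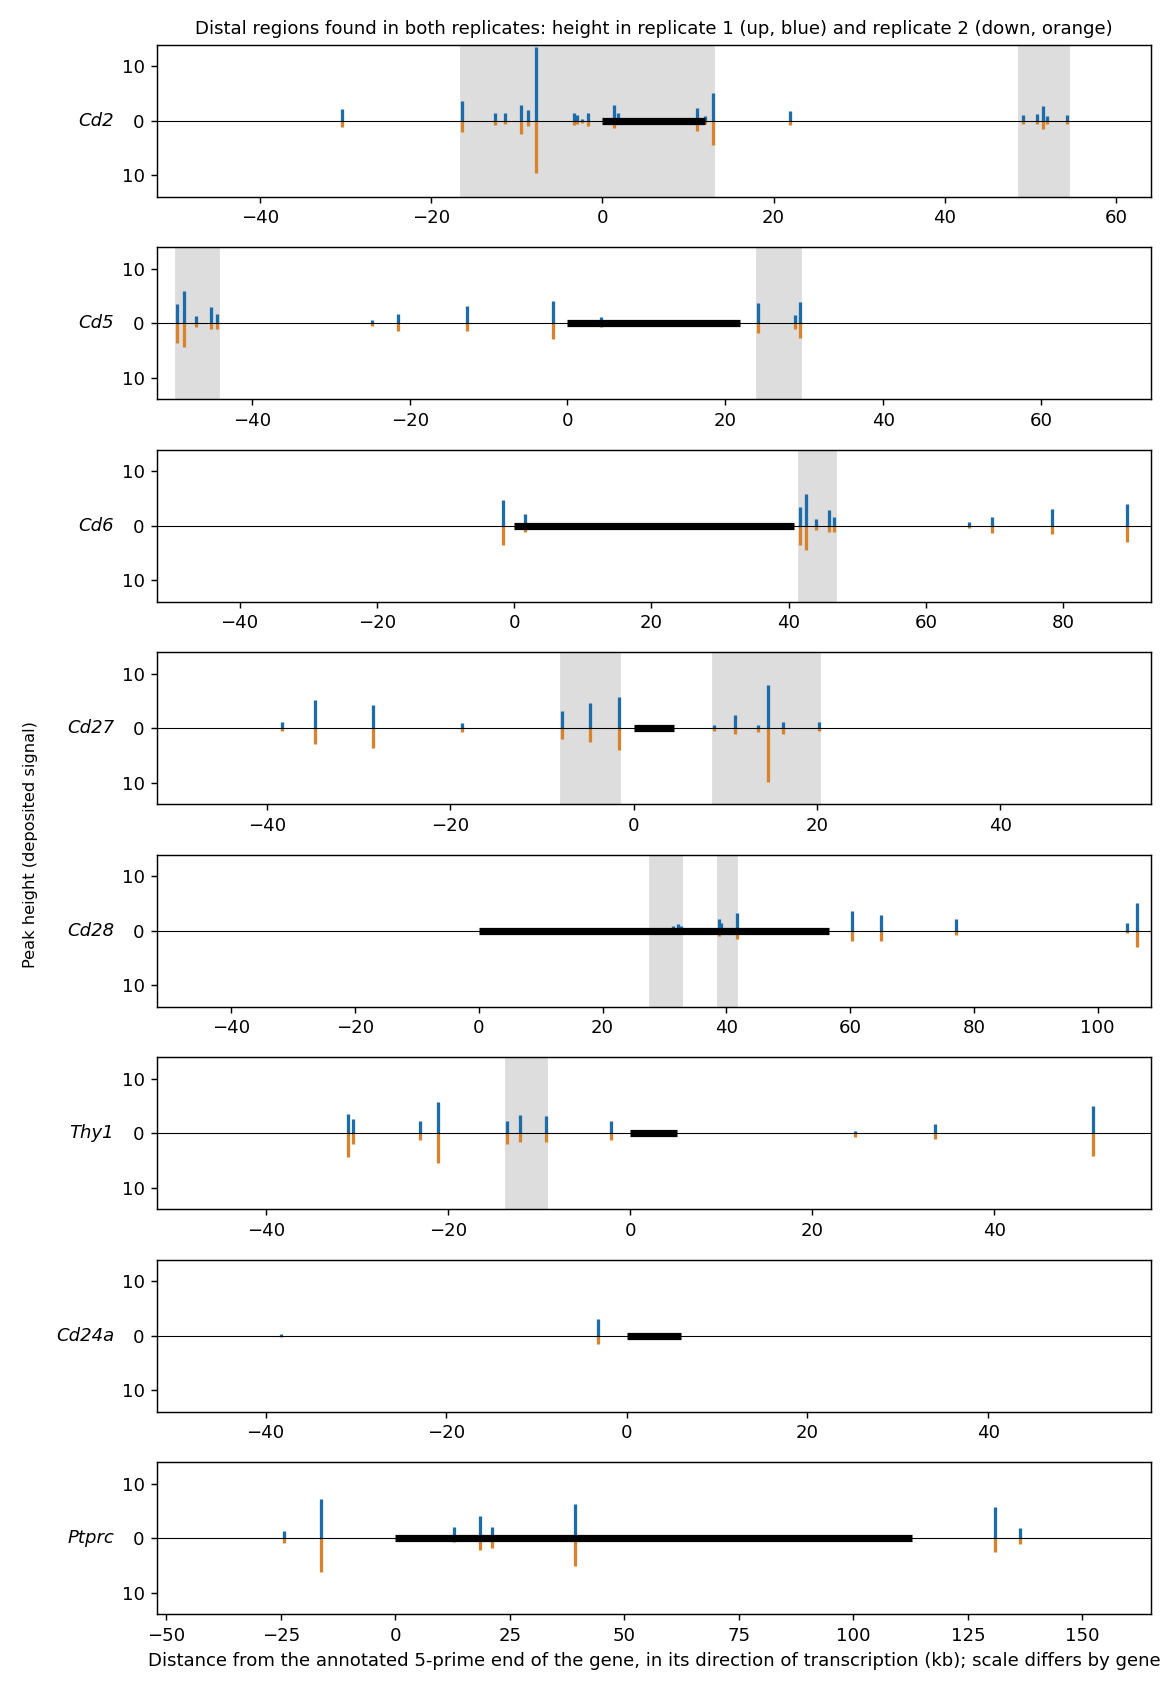
Shared distal regions along each gene (horizontal axis, kb from the annotated 5′ end in the direction of transcription, scale differing by gene), with height in replicate 1 upward and in replicate 2 downward (vertical axis, deposited signal). The black bar is the gene body and grey bands are clusters. The tallest line is the Cd2 region 7.8 kb before the gene, with 13.5 and 9.57.

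Several receptors had a distal region higher than their own promoter. Taking the highest shared distal region nearest to each gene, it was higher than the promoter in both replicates at Cd2, Cd6, Cd27 and Thy1, 4 of the 7 genes with both promoter peaks, where 13.2% of all genes with both promoter peaks and 21.5% of the CpG-poor ones did so. Those shares include genes with no shared distal region nearest to them, which could not qualify. Over all protein-coding genes the median number of such regions was 0, while each receptor had at least 1. The ratio of distal to promoter height was 3.22 in replicate 1 and 3.62 in replicate 2 at Cd2, 1.64 and 2.21 at Cd6, 1.49 and 1.19 at Thy1, and 1.14 and 1.06 at Cd27. It was under 1 in both replicates at Cd5, Cd28 and Cd24a, and 2.06 in replicate 1 at Ptprc. The receptor genes except Cd24a also had more distal regions than the median gene, and the part of that number in these ratios was not tested.

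**Figure D4:**
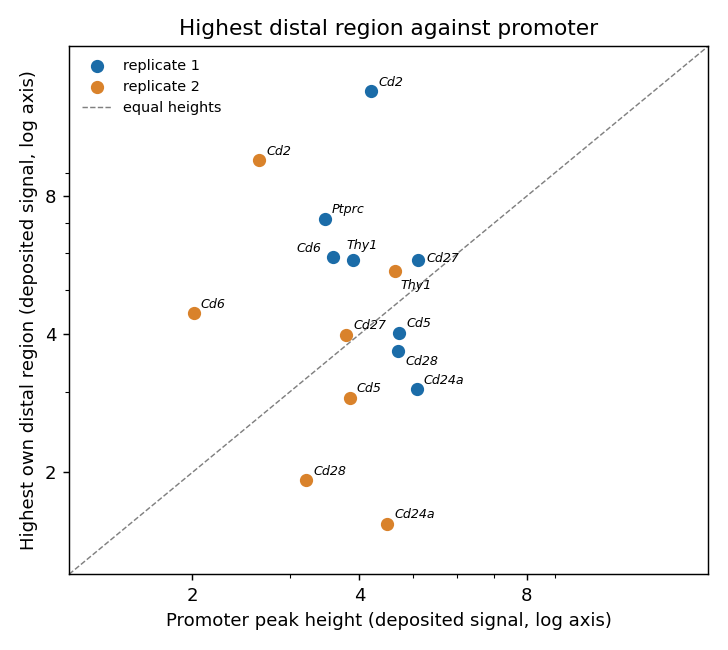
Height of the highest shared distal region nearest to each receptor gene (vertical log axis, deposited signal) against its promoter height (horizontal log axis, deposited signal), in replicate 1 (blue) and replicate 2 (orange). Points above the dashed line have a higher distal region. Cd2, Cd6, Cd27 and Thy1 lie above it in both replicates, and Cd5, Cd28 and Cd24a below it.

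Footprints were listed in every window. In replicate 1 they ranged from 49 in the Cd24a window to 221 in that of Thy1, and in replicate 2 from 29 in that of Ptprc to 91 in that of Cd27. Footprints lay inside peaks in 78.6% of cases in replicate 1 and 85.5% in replicate 2, against 82.8% and 84.2% over all footprints. Of the replicate 1 footprints 24.8% were overlapped by one of replicate 2, against 33.5% over all, and of the replicate 2 footprints 58.9% by one of replicate 1, against 61.8% over all. At Cd24a, whose CpG-rich promoter held 30 and 29 footprints, the shares were 63.3% and 63.8%, and at Ptprc 13.5% and 51.7%. At the other 6 promoters the numbers of footprints lay between 6 and 17 in replicate 1 and between 3 and 8 in replicate 2. Promoter counts cover 500 bp on each side of every annotated start, from 2046 bases at Cd28 to 4489 at Ptprc.

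Within the printed runs, the Cd2 region holds 111 bases in footprints of both replicates out of 220, and the Thy1 region 10 out of 220. CTCF core letters were searched in 4 spellings on either strand. AGAGGGC lies inside a shared footprint in the Cd24a region and in the Cd6 region 1.6 kb before the gene, and AGGGGGC inside that in the Cd5 region in Vps37c. The spellings AGATGGC and AGGTGGC were not found inside a shared footprint of these runs. The Cd5 and Cd6 runs named here were chosen for these letters, and over all footprints of the receptor windows the 4 spellings stood in 3.14% in replicate 1 and 3.18% in replicate 2, against 7.10% and 7.66% of all footprints. The RUNX core TGTGGT, or ACCACA on the other strand, lies inside a shared footprint in that same Cd5 region and in part in the Cd28 region. Outside shared footprints it also stands in the Cd2 and Cd24a runs and in the Cd6 run past the 3′ end. Over all footprints of the receptor windows it stood in 2.36% in replicate 1 and 2.73% in replicate 2, against 2.05% and 1.72% of all footprints. The TCF and LEF core CTTTGA, read as TCAAAG on the other strand, lies in a shared footprint of the region past the 3′ end of Cd6.

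Over the central 200 bp of all 85 shared distal regions, 30.6% held the RUNX core and 48.2% an E-box, CAGCTG or CACCTG, against 21.9% and 43.3% of all 34704 shared distal regions. The ETS core stood in 42.4%, against 41.2%. CTCF cores of the 4 spellings stood in 24.7%, against 40.8%, and the SP and KLF core GGGCGG in 5.88%, against 11.7%. TCF and LEF letters stood in 16.5%, against 15.2%, and the GATA core AGATAA in 7.06%, against 7.34%. The letters are short and occur often, so a match describes the sequence and does not mark a bound factor. Ikaros letters, TGGGAA, stood in 14.1%, against 16.8%, and TGACGT letters in 2.35%, against 2.97%.

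The other genes of these pathways were read from 3 lists, to be set beside the 63.4% and 57.8% of all protein-coding genes with a promoter peak in replicates 1 and 2. Of 24 other adhesion and costimulatory receptors, 24 had a promoter peak in replicate 1 and 22 in replicate 2, with the highest at Itga4, an integrin chain (9.54 and 10.4), Tnfrsf9 (7.31 and 8.48) and Slamf6 (6.77 and 6.51). Tnfrsf4 and Tigit had low peaks in replicate 1 alone. Of 17 intracellular partners, 17 had one in both replicates, and the highest were Traf2, an adaptor of TNF receptors (12.4 and 13.6), the adaptor Grb2 (10.6 and 14.2) and Cd2ap, which binds the CD2 tail (10.6 and 13.8). Of 9 ligands and counter-receptors, 4 had a promoter peak in replicate 1 and 3 in replicate 2. These were Alcam, the ligand of CD6 (3.91 and 3.30), the integrin chain gene Itgb3 (1.40 and 1.12), Cd48 (1.69 and 0.550) and, in replicate 1 alone, Cd86 (0.394). Cd80 and Cd70, whose products bind CD28 and CD27, had none in either replicate, and neither had Selp, Siglecg and Cdcp1. The median height over the library median, among genes with a peak, was 5.25 and 2.51 for the other receptors, 11.1 and 9.69 for the partners and 2.47 and 1.35 for the ligands in replicates 1 and 2. The library medians were 0.625 over 132737 peaks in replicate 1 and 0.828 over 69798 in replicate 2. Differences between replicates in these values therefore include that of the divisors, and the sets of genes with a peak also differ.

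**Figure D5:**
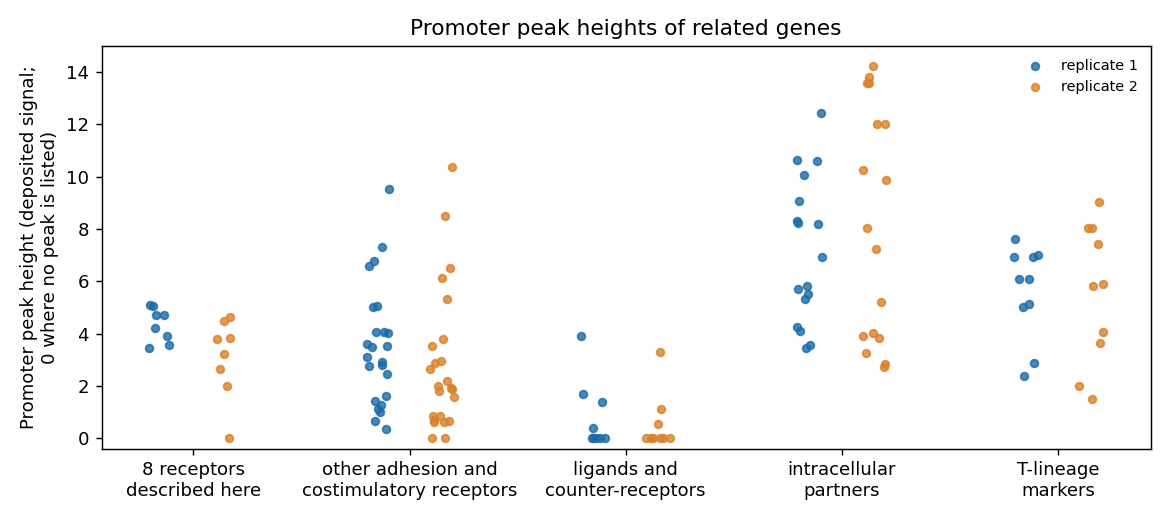
Promoter peak heights (vertical axis, deposited signal, 0 where no peak was listed) of the 8 receptors, of 24 other receptors, 9 ligands and counter-receptors, 17 intracellular partners and 10 T-lineage markers, 1 point per gene and library, with replicate 1 in blue and replicate 2 in orange. Partners reach 14.2 and ligands at most 3.91.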

How the data were processed

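DNase-seq was made from 2 thymus samples, each deposited with a pair of peak lists, a footprint list and a list of cut-rate false discovery rates on mm10, per the README deposited with each sample. The authors' signal in the peak lists is the height of each peak, in whole multiples of a step for each library. The larger list was used, and the other list (93790 and 46467 peaks) was the stricter alternative. Footprints carry the constant p-value type threshold 0.01 and cut-rate rates lie under 0.05, as deposited. Callers, aligner, read depth and the scaling factor are not given in the sources used here, so depth is unknown and no interval for depth was computed.

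Genes and starts were taken from GENCODE M21 and sequence from GRCm38.p6. The promoter height is the highest peak within 500 bp of any start of the gene. Peaks of both replicates overlapping by 1 bp were joined. Distal regions lie over 1 kb from protein-coding starts. A region was called own where the nearest protein-coding start belonged to the gene. A footprint was extended by 5 bp on each side when motif letters were searched in it. Python 3.11.15, pandas 2.3.3, numpy 2.4.6 and pysam 0.24.0 were used, and the steps were tested on simulated peaks. The named genes were the 8 receptors, per related list the 3 highest promoters and those without a promoter peak, the 5 highest shared distal regions per window and the genes next in height. The receptors and lists were chosen with earlier results of these data known. The 4-spelling CTCF search and the comparison of Ptprc with peaks of like height and GC content were added after values were seen, as were CpG content around the start nearest to the peak and the count of receptors with clusters under the alternatives. Motif letters were searched on both strands. Placement of reads from the CAST/EiJ chromosomes on the mm10 reference was not measured. A gene of the marker lists is not reported here.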

Additional observations from a re-analysis of the deposited data

How the results depend on the processing

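The number of receptors with a promoter peak in both replicates was 7, and 6 with the outermost 5′ end alone. The median promoter height over the library median was 5.91, and became 3.80 with the stricter list, 4.02 with the same number of highest peaks in each replicate and 1.02 over the median promoter height, since each raises the divisor in at least 1 library. Leaving out a replicate gave 4.57 to 7.11 for it, 7 to 8 receptors with a peak, a median percentile of 47.2 to 51.3, 104 to 230 distal regions, 440 to 1019 footprints and 78.6% to 85.5% of footprints inside peaks. The lower value of each count is replicate 2 alone. With the outermost 5′ end alone the median percentile was 43.3, against 50.4 with any start. Counts of distal regions (174 to 249), shared regions (60 to 85) and clusters (6 to 11) stayed within 1.5 times of 249, 85 and 9 under the other alternatives, though single genes moved by more, 5 of 8 in clusters at gaps of at most 2 kb. Receptors with at least 2 clusters numbered 4, and 2 with the stricter list, with 20 kb on each side or with own regions alone, and 1 at gaps of at most 2 kb. Those with at least 1 cluster numbered 5 to 7. The all-gene shares under these settings were not computed. The share of footprints overlapped in the other replicate was 41.8% on average and 37.9% at an overlap of 50%. No paired analysis was possible because there is 1 group. With 2 libraries, 1 library sets each spread, and the part of depth in the lower counts of replicate 2 was not tested.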
